A study of Mus musculus with 18 samples.

Results

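The comparison describes what distinguishes 2 mouse cancer cell lines before any drug was given. MC38 is labelled as a colon adenocarcinoma line and LLC as a Lewis lung carcinoma line. The libraries were chosen by their labels as the DMSO controls of these lines, which gave 6 of the 18 libraries of the series, 3 per line. The series sequenced the RNA of 3 lines, the third being 4T1, each given DMSO or the PDE5 inhibitor sildenafil citrate, and no sildenafil library enters the values below unless it is named. The MC38 controls were wild-type cells kept in DMSO for 24 hours, and the LLC controls were wild-type cells kept in DMSO for 48 hours. The line and the time in DMSO therefore cannot be told apart, while both lines were grown in Dulbecco's medium with fetal bovine serum. Each line stands for itself alone, as 1 line of its tumour type. The labels do not say that the 3 libraries of a line came from separate cultures, so every p-value is set against the variation among libraries, and that variation may be technical.

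As background, both lines came from tumours of the same inbred mouse strain and are widely used as grafts in mice with an intact immune system. MC38 is generally treated as an immunogenic model that responds to checkpoint blockade, and LLC as a poorly immunogenic model that responds little. A carcinoma cell can keep the genes of the epithelium it came from, such as keratins and cadherins, or lose them and take up mesenchymal genes. HOX genes record the position along the body axis of the tissue a cell descends from. Interferon-response genes include sensors of foreign nucleic acid, antiviral effectors and the machinery that presents peptides on MHC class I molecules to T cells.

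The MC38 libraries held 30844073 to 31777699 counts and the LLC libraries 26348654 to 31102300. Levels are given as CPM, the share of a library's counts on the usual counts-per-million scale, scaled with TMM factors over the 6 libraries, and a log2 fold change is MC38 over LLC with its standard error (SE). A mean is given as mean ± SD over the 3 libraries of a line. The first principal component held 97.3% of the variance and separated the lines. LLC replicate 3 stood apart from the other LLC libraries, with a chi-square per degree of freedom of 54.0 and 45.3 against them, where the other pair of LLC libraries gave 11.6. Its share of Gm26917, which is annotated as a long noncoding RNA, was 0.967% of counts, against 2.97% and 2.15% in the other LLC libraries. The MC38 libraries had 0.89% to 1.41%. Which RNA the reads given to Gm26917 came from was not tested. Mitochondrially encoded transcripts took 0.718% to 0.772% of the counts of MC38 libraries, against 1.22% to 1.77% of those of LLC libraries. The 10 listed RNAs, mostly nuclear or without a poly(A) tail, summed to 38170 to 41760 CPM in MC38 and 49770 to 62810 CPM in LLC. With the signal recognition particle RNAs Rn7s1 and Rn7s2, which the list leaves out, the sums were 91190 to 106800 CPM in MC38 and 78270 to 95130 CPM in LLC, so the direction of the sum depends on them. What part these differences have in the results was not tested.

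Of 14325 genes with enough counts to test, 5714 (39.9%) were higher and 5685 (39.7%) lower in MC38 at an adjusted p under 0.05 by edgeR's quasi-likelihood test. Since 79.6% of genes passed, a call alone sets no gene apart, and the counts below also ask for a change of at least 2-fold. By that rule 2606 genes (18.2%) were higher and 2568 (17.9%) lower in MC38, 36.1% in all, and these percentages are the background for every list. Among the 12158 protein-coding genes tested, which make up most lists, 19.3% were higher and 15% lower by the same rule. A list member counts as measured where it had enough counts in at least 1 line, so a low gene is measured through the line where it is higher. In 41% of genes every MC38 library lay above every LLC library and in 40.4% every one lay below, so 81.4% of genes did not overlap. The median log2 fold change over all tested genes was -0.02. Without LLC replicate 3 the counts of genes called were 6027 higher and 5947 lower.

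**Figure D1:**
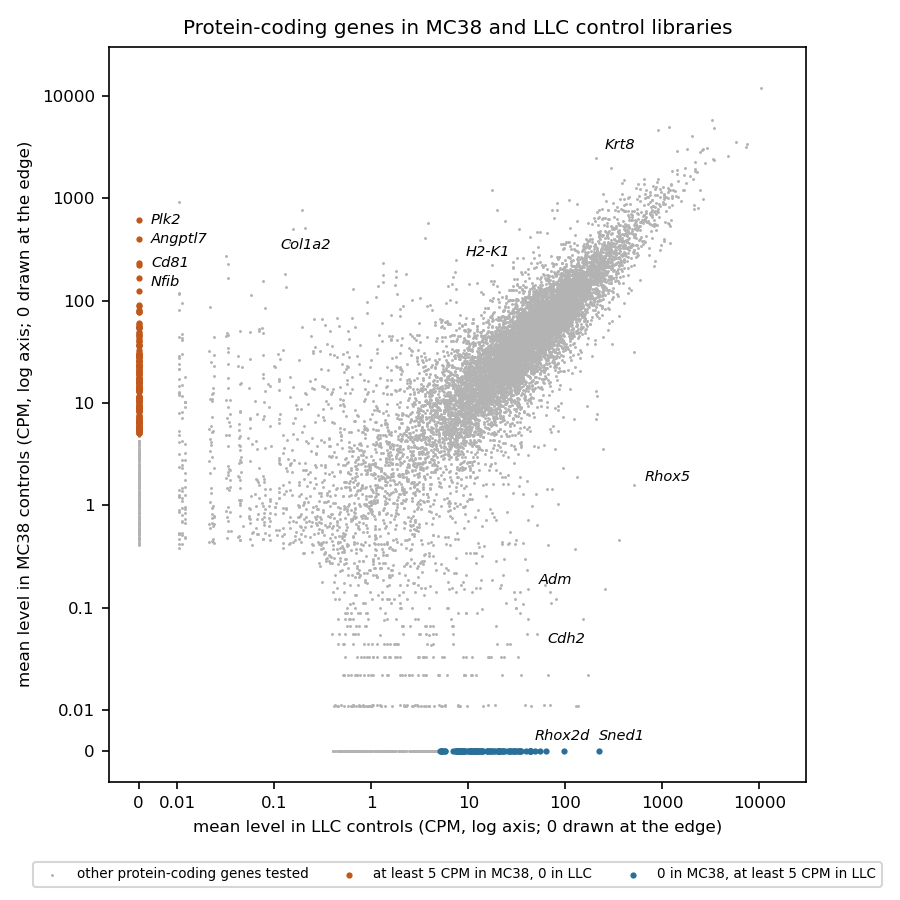
Mean level of each tested protein-coding gene in the 3 MC38 controls (vertical axis) and the 3 LLC controls (horizontal axis), in CPM on log axes with 0 drawn at the edge. The 164 orange genes had at least 5 CPM in MC38 and no count in LLC, and the 101 blue genes had no count in MC38 and at least 5 CPM in LLC.

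Some well-expressed genes of 1 line had no count in the other. Of 9750 protein-coding genes with at least 5 CPM in MC38, 164 (1.68%) had no count in any LLC control, and 19 of these reached 50 CPM. Of 9537 protein-coding genes with at least 5 CPM in LLC, 101 (1.06%) had no count in any MC38 control, and 4 of these reached 50 CPM. The sildenafil libraries of the line without counts also had none for 133 of the 164 genes and 76 of the 101 genes, and the highest total over 3 such libraries was 6 counts for the first set and 13 for the second. For genes at 0, a fold is a lower bound against a floor of 3 counts summed over the 3 libraries, which is 0.033 CPM in MC38 and 0.0336 CPM in LLC and covers counting error only.

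Plk2, a polo-like kinase that p53 can induce, had 615, 623 and 619 CPM in the 3 MC38 libraries, against 0 CPM in all 3 LLC libraries. It was at least 18405-fold higher in MC38. Angptl7, a secreted angiopoietin-like protein, had 408, 406 and 386 CPM in the 3 MC38 libraries, against 0 CPM in all 3 LLC libraries, at least 11898-fold higher. Of these 2 lines MC38 alone held counts of both genes. In 4T1 Plk2 was measured at 113 CPM and Angptl7 at 0.237 CPM on a scale over the 9 controls. The 4T1 libraries differed in make-up from the others, so these levels are not strictly alike. Cd81, a tetraspanin of the cell surface, had 234, 238 and 226 CPM in the 3 MC38 libraries, against 0 CPM in all 3 LLC libraries. Tmsb4x, the X-linked actin-binding thymosin beta 4, had 228, 223 and 217 CPM in the 3 MC38 libraries, against 0 CPM in all 3 LLC libraries. Nfib, a transcription factor of the nuclear factor I family, had 159, 158 and 183 CPM in the 3 MC38 libraries, against 0 CPM in all 3 LLC libraries. No LLC library held a count of these 3 genes, and the bounds were 6920.3-fold for Cd81, 6622-fold for Tmsb4x and 4952-fold for Nfib. The serine protease Prss23, the growth-arrest genes Gas1 and Gas7 and the polyadenylation factor Cstf2t were likewise at 0 in LLC, with MC38 means of 123, 87.7, 89.8 and 81.6 CPM. Thbs1, the matrix glycoprotein thrombospondin 1, had 897, 903 and 962 CPM in the 3 MC38 libraries, against 0, 0 and 0.0317 CPM in the 3 LLC libraries. Its single LLC count gave a ratio of 82153 (95% interval 14744 to 3244900.0).

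In the other direction Sned1, an extracellular matrix protein, had 0 CPM in all 3 MC38 libraries, against 241, 229.7 and 203 CPM in the 3 LLC libraries. It was at least 6799.9-fold lower in MC38. Rhox2d and Rhox2h, X-linked homeobox genes of the reproductive tract, had 0 CPM in MC38 and means of 97.5 and 62.9 CPM in LLC. Their reads may be shared with near-identical Rhox2 copies, so the split between the copies is uncertain. The scavenger receptor Colec12 had 0 CPM in all 3 MC38 libraries, against 53.1, 52.7 and 58.5 CPM in the 3 LLC libraries. Pcolce2, an enhancer of procollagen processing, had 0 CPM in all 3 MC38 libraries, against 46, 50.01 and 51.3 CPM in the 3 LLC libraries. Nup210, a nuclear pore membrane protein, had 0 CPM in all 3 MC38 libraries, against 44.6, 46 and 41.5 CPM in the 3 LLC libraries. None of these had a count in MC38. Syt14, Nptx1, Zmym6 and Ildr2 were also at 0 in MC38, with LLC means of 43.8, 43.7, 43.3 and 43 CPM.

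The tissue of origin on the labels was not visible in the defining markers of either line. Cdx2 and Cdx1, the transcription factors that set intestinal identity, and Vil1, the brush-border actin bundler, had no count in any of the 6 libraries. Of 24 intestinal epithelium markers 22 stayed under 1 CPM in every library and 12 had no count at all, and their summed level was 10.9 to 13.1 CPM in MC38 and 13.2 to 22.3 CPM in LLC. Of 3 measured, 1 was at least 2-fold higher and 1 at least 2-fold lower in MC38, and the median of 0.67 turned to -1.52 when 5 CPM in 3 libraries was required. Cdh17, liver-intestine cadherin, was the higher one, with 4.43, 4.8 and 4.37 CPM in the 3 MC38 libraries, against 0, 0.0362 and 0.0951 CPM in the 3 LLC libraries.

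Lung markers gave a like picture. Nkx2-1, the factor that sets lung and thyroid identity, the surfactant genes Sftpa1, Sftpb, Sftpc and Sftpd, and the club cell gene Scgb1a1 had no count in either line. Of 22 lung epithelium markers 17 stayed under 1 CPM in every library, and the list summed to 80.6 to 87.8 CPM in MC38 and 71.5 to 88.5 CPM in LLC, most of it from Abca3, a lipid transporter with 78.6 ± 4.25 CPM in MC38 and 66.8 ± 8.78 CPM in LLC. Napsa, an aspartic protease of alveolar cells, had 0.0333, 0 and 0 CPM in the 3 MC38 libraries, against 5.15, 5.4 and 4.6 CPM in the 3 LLC libraries. Foxa1, a pioneer factor of endodermal epithelia, had 0 CPM in all 3 MC38 libraries, against 1.96, 1.48 and 1.68 CPM in the 3 LLC libraries. Napsa and Foxa1 were thus low but seen in every LLC library, and at most 1 count of either was seen in MC38. Of 6 measured lung markers 1 was at least 2-fold higher and 3 lower in MC38. The higher one was Ager, a receptor of alveolar cells, with 0.825 ± 0.126 CPM in MC38 and 0.188 ± 0.0688 CPM in LLC, and the third lower one was Aqp5, a water channel, with 0.232 ± 0.089 CPM in MC38 and 0.939 ± 0.194 CPM in LLC.

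Markers of other cell types were mostly at or near 0. None of 5 erythroid markers reached 1 CPM. The leukocyte markers summed to 5.93 to 6.47 CPM in MC38 and 2.57 to 3.16 CPM in LLC, and the defining genes Ptprc, Cd3e and Itgam were each under 0.1 CPM in both lines. Csf1r, the receptor of macrophage growth factors, had 2.76, 2.58 and 2.88 CPM in the 3 MC38 libraries, against 0.0333, 0 and 0 CPM in the 3 LLC libraries, and Cd68, a lysosomal protein used as a macrophage marker, had 2.86 ± 0.379 CPM in MC38 and 1.41 ± 0.252 CPM in LLC. These were the 2 of 3 measured leukocyte markers at least 2-fold higher in MC38, and the third, the lysozyme gene Lyz2, was lower, with 0.419 ± 0.0414 CPM in MC38 and 1.45 ± 0.0451 CPM in LLC. Of the endothelial markers Kdr and Tek had no count in MC38 and means of 0.0564 and 0.0997 CPM in LLC, Cldn5 and Emcn were at 0 in both lines, and Pecam1 had 0.981 ± 0.226 CPM in MC38 and 0.0654 ± 0.0532 CPM in LLC. Egfl7, which other cells also express, had 14.7 ± 0.398 CPM in MC38 and 20.3 ± 1.66 CPM in LLC. Of 3 measured endothelial markers 2 were at least 2-fold higher in MC38, 1 of them at 0 in LLC, and 0 were at least 2-fold lower. Their median of 3.79 turned to -0.52 when 5 CPM in 3 libraries was required.

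**Figure D2:**
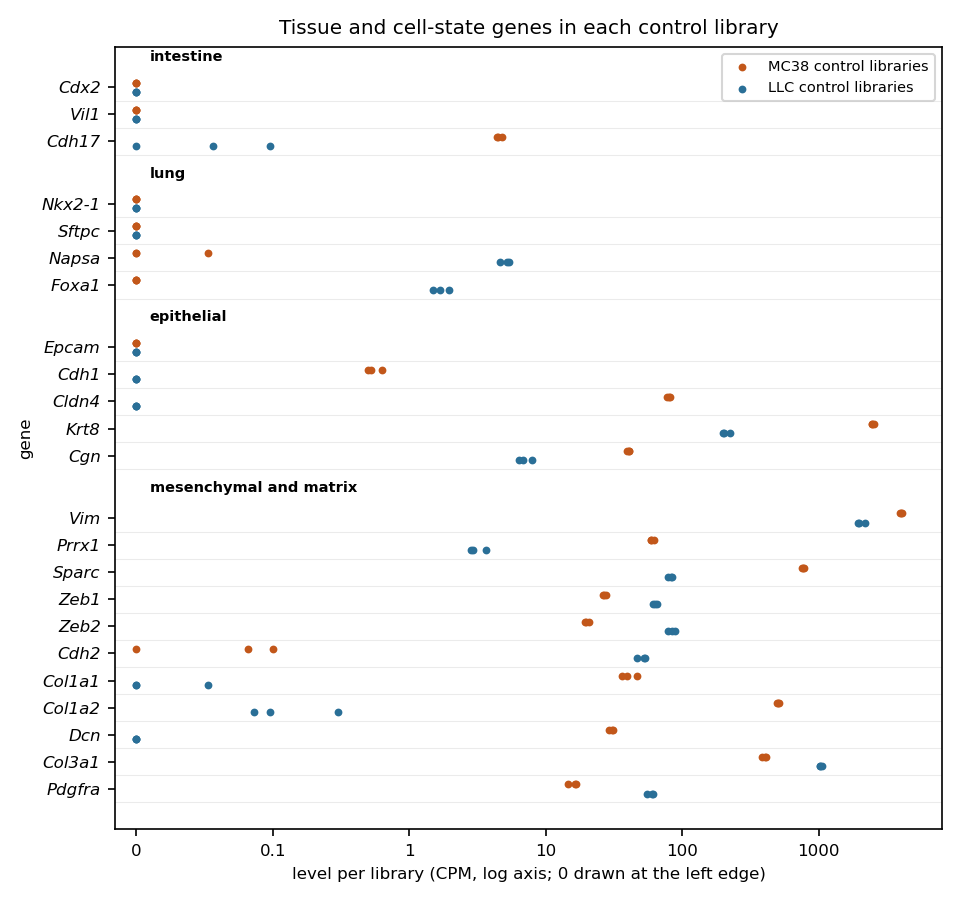
Level of tissue and cell-state genes in each control library, in CPM on a log axis with 0 drawn at the left edge, with MC38 above LLC for each gene. Cdx2, Vil1, Nkx2-1, Sftpc and Epcam lie at 0 in all 6 libraries, Krt8 and Cldn4 lie far to the right in MC38, and Cdh2 lies to the right in LLC.

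Most epithelial markers were under 1 CPM in both lines, and those that were measured were mostly higher in MC38. Epcam, Esrp1, Cldn7 and Dsp, which define epithelial surfaces, splicing and junctions, had no count in either line, and 21 of 27 epithelial markers stayed under 1 CPM in all 6 libraries. Of the 10 measured members 8 were at least 2-fold higher and 2 lower in MC38, with a median of 4.30 (3.80 with genes at 0 placed at their bound), beside 18.2% and 17.9% of all genes. Of these 10 members 4 had no count in LLC, so they were measured through MC38 alone. Over the 19 alternatives 3 to 8 members were at least 2-fold higher and 0 to 2 lower, so the counts depend on low genes. Krt8, a keratin of simple epithelia, had 2460.4, 2524 and 2463 CPM in the 3 MC38 libraries, against 201, 199.9 and 225 CPM in the 3 LLC libraries, a log2 fold change of 3.57 ± 0.0665 (adjusted p = 1.57e-11). The whole list summed to 2588 to 2652 CPM in MC38 and 209 to 235 CPM in LLC, most of it from Krt8, so no other listed keratin came near its level. Cldn4, a tight-junction claudin, had 81.6, 79.3 and 77.4 CPM in the 3 MC38 libraries, against 0 CPM in all 3 LLC libraries, at least 2363-fold higher. Cgn, the tight-junction adaptor cingulin, had 40.6, 40.8 and 39.3 CPM in the 3 MC38 libraries, against 6.78, 6.37 and 7.96 CPM in the 3 LLC libraries. Cdh1, which encodes E-cadherin, was barely measured, with 0.633, 0.523 and 0.497 CPM in the 3 MC38 libraries, against 0 CPM in all 3 LLC libraries. Grhl1, a factor of epithelial differentiation, had 2.82 ± 0.375 CPM in MC38 and 0 CPM in LLC. Ocln and Marveld2, of tight junctions, were the 2 lower members. Ocln had 0.209 ± 0.0769 CPM in MC38 and 1.03 ± 0.0912 CPM in LLC and Marveld2 had 0.0553 ± 0.0506 CPM in MC38 and 0.465 ± 0.131 CPM in LLC.

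Mesenchymal genes were expressed in both lines, and the lines used different members. Of 20 measured mesenchymal markers 10 were at least 2-fold higher and 5 lower in MC38. Vim, the intermediate filament vimentin, had 3963, 4097 and 4011 CPM in the 3 MC38 libraries, against 1942, 1969 and 2165 CPM in the 3 LLC libraries. It was higher in MC38, with a log2 fold change of 0.99 ± 0.0636 (adjusted p = 1.37e-07). Prrx1, a homeobox factor of mesenchyme, had 58.9, 58.8 and 61.7 CPM in the 3 MC38 libraries, against 3.66, 2.82 and 2.92 CPM in the 3 LLC libraries. Sparc, a collagen-binding matrix protein, had 776, 763 and 759.9 CPM in the 3 MC38 libraries, against 82.9, 78.9 and 84.4 CPM in the 3 LLC libraries. These genes were higher in MC38 in every library. Cdh2, which encodes N-cadherin, had 0.0999, 0.0653 and 0 CPM in the 3 MC38 libraries, against 46.7, 52.8 and 52.6 CPM in the 3 LLC libraries, and was all but missing from MC38. Zeb1 and Zeb2, repressors of epithelial genes, were also lower in MC38. Zeb1 had 26.8 ± 0.576 CPM in MC38 and 63.2 ± 2.07 CPM in LLC, and Zeb2 had 19.9 ± 0.845 CPM in MC38 and 83.7 ± 4.44 CPM in LLC. Snai2 had 8.14 ± 0.431 CPM in MC38 and 23.4 ± 5.59 CPM in LLC and S100a4 had 801 ± 19.8 CPM in MC38 and 2328 ± 416 CPM in LLC. Ncam1, a neural cell adhesion molecule, had 53.6, 53.6 and 53.9 CPM in the 3 MC38 libraries, against 0 CPM in all 3 LLC libraries, and Foxc2, a mesenchymal forkhead factor, had 10.1 ± 0.988 CPM in MC38 and 0.0121 ± 0.0209 CPM in LLC.

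Fibrillar matrix genes separated the lines further. Of 10 measured members of the fibroblast list 7 were at least 2-fold higher and 2 lower in MC38. Col1a1, a chain of type I collagen, had 36.4, 39.4 and 46.6 CPM in the 3 MC38 libraries, against 0.0333, 0 and 0 CPM in the 3 LLC libraries. Col1a2, its partner chain, had 495, 513 and 506 CPM in the 3 MC38 libraries, against 0.299, 0.0724 and 0.0951 CPM in the 3 LLC libraries. Both chains, and with them Col5a1 at 114 ± 1.98 CPM in MC38 and 0.0573 ± 0.0546 CPM in LLC, were measured in MC38 and almost missing in LLC. Dcn, the collagen-binding proteoglycan decorin, had 30.5, 30.8 and 28.8 CPM in the 3 MC38 libraries, against 0 CPM in all 3 LLC libraries. Col3a1, the type III collagen chain, went the other way, with 408, 404 and 382 CPM in the 3 MC38 libraries, against 1013, 1052 and 1021 CPM in the 3 LLC libraries. Pdgfra, a receptor of platelet-derived growth factor, had 15.9 ± 1.23 CPM in MC38 and 59 ± 3.03 CPM in LLC, and it too was lower in MC38. In a culture of 1 cell line, a share of cells with a gene and the amount per cell cannot be told apart in these bulk libraries.

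The lines differed in which HOX genes were found within the clusters. Of 39 HOX genes 24 were measured, of which 13 were at least 2-fold higher and 8 lower in MC38, and the median of 1.25 turned to -0.52 when 5 CPM in 3 libraries was required, so the list has no single direction. Hoxc10, of the posterior HoxC group, had 14.4, 12.4 and 13.3 CPM in the 3 MC38 libraries, against 0 CPM in all 3 LLC libraries. Hoxc11 had 8.52, 9.01 and 8.25 CPM in the 3 MC38 libraries, against 0 CPM in all 3 LLC libraries, and Hoxc9 had 6.47 ± 0.745 CPM in MC38 and 0 CPM in LLC. Hoxc13 and Hoxb5 were also at 0 in LLC with 1.28 and 0.728 CPM in MC38. Hoxb6 had 2.56, 4.18 and 2.68 CPM in the 3 MC38 libraries, against 0 CPM in all 3 LLC libraries. The posterior HoxC genes from Hoxc9 onward that were measured were thus found in MC38 alone, while Hoxc4, Hoxc5 and Hoxc6 were measured in both lines. Hoxd9 had 0 CPM in all 3 MC38 libraries, against 31.6, 28.2 and 30.7 CPM in the 3 LLC libraries. Hoxd10 had 0 CPM in all 3 MC38 libraries, against 33.3, 32.3 and 34.1 CPM in the 3 LLC libraries. These 2 neighbours were found in LLC alone, at least 913-fold and 1006-fold lower in MC38. The HoxA cluster was active in both lines, with Hoxa9 at 35.6 ± 1.74 CPM in MC38 and 46 ± 3.22 CPM in LLC. Within it Hoxa13, the most posterior gene, had 0.682 ± 0.0788 CPM in MC38 and 7.25 ± 0.223 CPM in LLC, and Hoxa3, an anterior gene, had 0.341 ± 0.0217 CPM in MC38 and 3.89 ± 0.924 CPM in LLC, both lower in MC38.

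**Figure D3:**
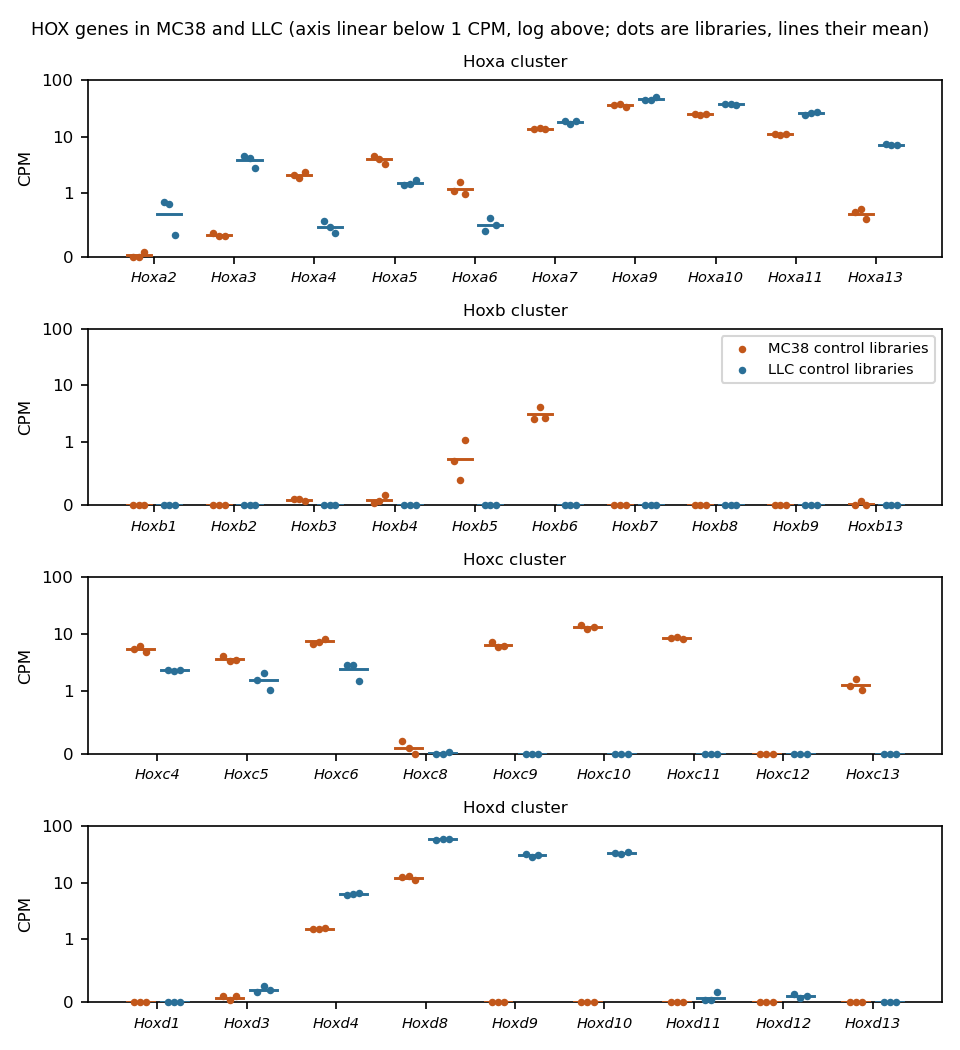
Level of HOX genes in the 3 MC38 libraries (left of each pair) and the 3 LLC libraries (right), in CPM, with a panel per cluster; dots are libraries and lines their means. Hoxb5, Hoxb6, Hoxc9, Hoxc10, Hoxc11 and Hoxc13 have counts in MC38 and lie at 0 in LLC, and Hoxd9 and Hoxd10 lie at 0 in MC38.

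Interferon-response genes were higher in MC38 almost throughout. Of 45 genes on the list 41 were measured, and 34 were at least 2-fold higher and 1 lower in MC38, beside 18.2% and 17.9% of all genes. Their median log2 fold change was 2.99, and it ran from 2.61 to 3.17 over the 19 alternatives. Summed over the list, the level was 815 to 838 CPM in MC38 and 236 to 247 CPM in LLC. With 5 CPM in 3 libraries required, 23 higher members were left.

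Short promoter stretches of 5 genes are shown because they hold the letters of the interferon-stimulated response element, to which interferon-activated STAT and IRF factors are known to bind. The element was searched on both strands, as TTTC and TTTC with any 2 bases between them or GAAA and GAAA with any 2 bases between them, in the 250 bases before the start of each gene in RefSeq (GRCm38.p6), and matches are in capitals. The pattern was found in 16 of 32 interferon-response genes with a promoter in that table, in 3 of 20 MHC class I and peptide loading genes, and in 936 of 27025 genes in all, which is 3.46%. Overlapping matches run together in capitals, and a match is a description of the sequence, not a measured binding site.
Ifit1, chr19:34640745-34640834, plus strand: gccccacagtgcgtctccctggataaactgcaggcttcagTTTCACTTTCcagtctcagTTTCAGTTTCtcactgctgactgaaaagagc
Rsad2, chr12:26456523-26456612, minus strand: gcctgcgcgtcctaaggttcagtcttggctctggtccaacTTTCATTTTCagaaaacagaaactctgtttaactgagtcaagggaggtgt
Isg15, chr4:156200847-156200936, minus strand: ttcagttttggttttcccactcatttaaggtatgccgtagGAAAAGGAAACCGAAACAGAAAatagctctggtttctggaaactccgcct
Bst2, chr8:71537553-71537642, minus strand: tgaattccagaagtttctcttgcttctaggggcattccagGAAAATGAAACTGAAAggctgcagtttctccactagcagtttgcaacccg
B2m, chr2:122147508-122147597, plus strand: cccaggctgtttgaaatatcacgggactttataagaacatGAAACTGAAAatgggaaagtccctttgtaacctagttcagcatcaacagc

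The sensor Ifih1, which detects long double-stranded RNA, had 26.7, 25.3 and 25.7 CPM in the 3 MC38 libraries, against 0 CPM in all 3 LLC libraries, at least 771-fold higher in MC38. The related sensor Ddx58 had 45.9, 44.5 and 44.6 CPM in the 3 MC38 libraries, against 8.48, 7.39 and 7.86 CPM in the 3 LLC libraries. Of the genes whose promoters are shown, Ifit1, a binder of foreign RNA caps, had 9.19, 8.85 and 9.34 CPM in the 3 MC38 libraries, against 0, 0.0362 and 0 CPM in the 3 LLC libraries. Ifit1 and Ifih1 were thus at or next to 0 in LLC, while Ddx58 was measured in both lines. Rsad2, which encodes viperin, had 10.4, 10.1 and 10.3 CPM in the 3 MC38 libraries, against 0.0333, 0.109 and 0.0951 CPM in the 3 LLC libraries. Isg15, a ubiquitin-like modifier, had 3.996, 3.95 and 3.71 CPM in the 3 MC38 libraries, against 0.765, 0.942 and 0.666 CPM in the 3 LLC libraries. Bst2, which tethers budding virus, had 68, 72 and 66.5 CPM in the 3 MC38 libraries, against 21.2, 20.9 and 23.8 CPM in the 3 LLC libraries. All 3 were higher in every MC38 library than in any LLC library, and their log2 fold changes were 6.96 ± 0.21, 2.30 ± 0.17 and 1.65 ± 0.0642. The guanylate-binding protein Gbp3 had 6.23 ± 0.652 CPM in MC38 and 0.0433 ± 0.0375 CPM in LLC. Among the transcription factors of the pathway Irf1 had 83.8 ± 1.8 CPM in MC38 and 15.1 ± 1.7 CPM in LLC and Irf9 had 12.9 ± 0.497 CPM in MC38 and 3.02 ± 0.373 CPM in LLC, while Stat2 had 13.1 ± 0.0941 CPM in MC38 and 7.93 ± 0.482 CPM in LLC and Irf7 had 1.5 ± 0.435 CPM in MC38 and 0.88 ± 0.151 CPM in LLC. Herc6, the mouse ISG15 ligase, was the member lower in MC38, with 8.06, 8.26 and 7.98 CPM in the 3 MC38 libraries, against 24.7, 24.9 and 22.7 CPM in the 3 LLC libraries.

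Antigen presentation genes were also mostly higher in MC38. Of 24 MHC class I and peptide loading genes 22 were measured, 14 were at least 2-fold higher and 1 lower in MC38, and the median was 1.74. H2-K1, a classical class I heavy chain, had 249, 259.9 and 236 CPM in the 3 MC38 libraries, against 7.02, 7.42 and 7.8 CPM in the 3 LLC libraries, a log2 fold change of 5.06 ± 0.064 (adjusted p = 1.82e-12). H2-D1, the other classical heavy chain measured, had 315, 333 and 308 CPM in the 3 MC38 libraries, against 111, 109 and 125 CPM in the 3 LLC libraries, a log2 fold change of 1.47 ± 0.0621. The MC38 libraries held more of both chains, and whether the K and D differences themselves differ was not tested. H2-Q4 had 17, 17.3 and 15.2 CPM in the 3 MC38 libraries, against 0 CPM in all 3 LLC libraries. Reads of class I genes may be divided between near-identical copies, so values of single H2 genes are uncertain. B2m, the light chain of every class I molecule, had 269, 256 and 248 CPM in the 3 MC38 libraries, against 155, 158 and 172 CPM in the 3 LLC libraries, a log2 fold change of 0.67 ± 0.054. Psmb8, a catalytic subunit of the immunoproteasome, had 45, 45.3 and 46.3 CPM in the 3 MC38 libraries, against 1.66, 1.48 and 1.81 CPM in the 3 LLC libraries. The peptide transporter gene Tap1 had 21.6 ± 1.05 CPM in MC38 and 5.54 ± 0.661 CPM in LLC, and Nlrc5, the transactivator of class I genes, had 14 ± 1.39 CPM in MC38 and 8.01 ± 1.1 CPM in LLC. H2-T23 had 19.2 ± 0.299 CPM in MC38 and 0.771 ± 0.208 CPM in LLC. H2-M3, which presents formylated peptides, was the lower member, with 4.77 ± 0.148 CPM in MC38 and 9.74 ± 0.838 CPM in LLC, and its difference was under 2-fold without LLC replicate 3.

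Ligands that T cells and natural killer cells read were split between the lines. Of 15 measured immune ligand genes 4 were at least 2-fold higher and 6 lower in MC38. Entpd1, which encodes the ectonucleotidase CD39, had 121, 118 and 119.6 CPM in the 3 MC38 libraries, against 0, 0 and 0.0317 CPM in the 3 LLC libraries. Lgals9, a galectin, had 32.7 ± 0.481 CPM in MC38 and 2.999 ± 0.285 CPM in LLC. Cd274, which encodes PD-L1, had 2.46, 2.91 and 3.25 CPM in the 3 MC38 libraries, against 2.79, 2.61 and 2.22 CPM in the 3 LLC libraries, and its log2 fold change of 0.18 ± 0.159 was not called (adjusted p = 0.319). The MC38 and LLC values of Cd274 overlapped, in contrast to Entpd1. Of the ligands of the activating receptor NKG2D, 3 were lower in MC38. Raet1e had 0, 0.098 and 0 CPM in the 3 MC38 libraries, against 22.9, 21.9 and 25.4 CPM in the 3 LLC libraries. Ulbp1 had 9.29, 10.8 and 9.54 CPM in the 3 MC38 libraries, against 86.7, 89.8 and 96.8 CPM in the 3 LLC libraries, and Raet1d had 1.62 ± 0.0474 CPM in MC38 and 18.2 ± 0.941 CPM in LLC. Vsir, which encodes the checkpoint protein VISTA, had 5.31 ± 0.296 CPM in MC38 and 43.4 ± 2.27 CPM in LLC. Tnfsf9, the ligand of 4-1BB, had 3.3 ± 0.172 CPM in MC38 and 1.12 ± 0.17 CPM in LLC, and Tnfrsf14 had 2.55 ± 0.551 CPM in MC38 and 0.949 ± 0.274 CPM in LLC.

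Chemokines and cytokines were more often higher in MC38, with 14 of 24 measured genes at least 2-fold higher and 4 lower, and a median of 2.12. Their summed level did not separate the lines, at 2357 to 2391 CPM in MC38 and 2294 to 2652 CPM in LLC. Ccl2, which attracts monocytes, had 139 ± 2.65 CPM in MC38 and 6.13 ± 0.561 CPM in LLC. Csf1, the growth factor of macrophages, had 259 ± 5.19 CPM in MC38 and 36.5 ± 2.64 CPM in LLC. Lif, a cytokine of the interleukin-6 family, had 65, 68 and 70.5 CPM in the 3 MC38 libraries, against 0.2, 0.398 and 0.729 CPM in the 3 LLC libraries. Cxcl10, an interferon-induced attractant of T cells, had 7.83, 8.52 and 8.25 CPM in the 3 MC38 libraries, against 0.0333, 0.0362 and 0.0634 CPM in the 3 LLC libraries. Each of these was several-fold higher in every MC38 library. Cxcl16 had 17.9 ± 0.601 CPM in MC38 and 0.146 ± 0.0198 CPM in LLC and Ccl7 had 7.41 ± 0.207 CPM in MC38 and 0.0791 ± 0.051 CPM in LLC. The angiogenic factors Vegfa and Vegfb went the other way. Vegfa had 27.7 ± 2.22 CPM in MC38 and 55.5 ± 2.94 CPM in LLC, Vegfb had 9.11 ± 0.345 CPM in MC38 and 34.8 ± 3.65 CPM in LLC and Vegfc had 1.1 ± 0.0315 CPM in MC38 and 3.45 ± 0.168 CPM in LLC, and Mif had 221 ± 6.65 CPM in MC38 and 516 ± 91.5 CPM in LLC. Between the sildenafil libraries of the lines the Vegfa difference was not called (adjusted p = 0.209).

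**Figure D4:**
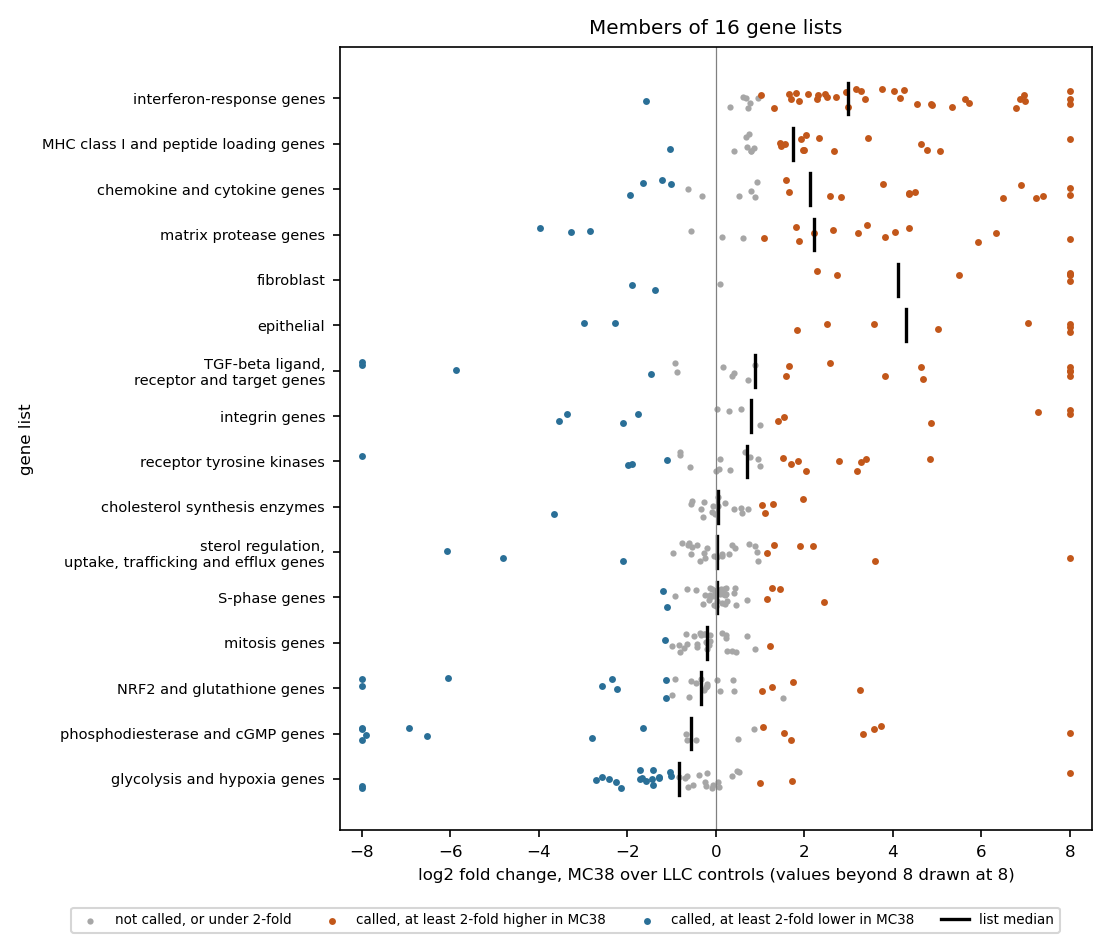
Log2 fold change, MC38 over LLC, of each measured member of 16 gene lists (dots, with values beyond 8 drawn at 8) and the list medians (bars). Interferon-response, MHC class I, cytokine and matrix protease genes lie to the right of 0, glycolysis and hypoxia genes to the left, and cholesterol synthesis, S-phase and mitosis genes around 0.

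Among RAS, cell cycle and tumour suppressor genes 5 of 35 measured genes were at least 2-fold higher and 5 lower in MC38, under the background share in both directions. Nras, a RAS GTPase, had 133, 129 and 131 CPM in the 3 MC38 libraries, against 175, 193 and 194 CPM in the 3 LLC libraries. It was called lower in MC38 and under 2-fold, with a log2 fold change of -0.52 ± 0.0506. Trp53, which encodes p53, had 92.1, 91.5 and 95.9 CPM in the 3 MC38 libraries, against 38.1, 39.9 and 32.3 CPM in the 3 LLC libraries, a log2 fold change of 1.34 ± 0.0735. Smad4, the common mediator of TGF-beta and BMP signals, had 13.1, 13.6 and 14.3 CPM in the 3 MC38 libraries, against 89.9, 89.95 and 79.4 CPM in the 3 LLC libraries, a log2 fold change of -2.66 ± 0.0676. Myc had 71.1 ± 2.55 CPM in MC38 and 361 ± 46.2 CPM in LLC, and Ccnd2, a D-type cyclin, had 38 ± 2.6 CPM in MC38 and 301 ± 48.3 CPM in LLC. Mycn, the neural relative of Myc, had 27.6, 26.2 and 25.4 CPM in the 3 MC38 libraries, against 0 CPM in all 3 LLC libraries. Mycn was thus found in MC38 alone, while Myc was measured in both lines and was higher in LLC. Nf1, a brake on RAS, had 41 ± 5.17 CPM in MC38 and 203 ± 47.3 CPM in LLC.

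Cdkn2a and Cdkn2b, neighbouring genes for cell cycle inhibitors on chromosome 4 (89274471 to 89311039 in mm10), had no count in any of the 6 libraries. The adjacent gene Mtap was expressed in both, with 530.3, 512 and 506 CPM in the 3 MC38 libraries, against 109, 108 and 116 CPM in the 3 LLC libraries. No other gene of this list lacked counts in both lines. Cdkn1a, which encodes the inhibitor p21, had 2.3 ± 0.0454 CPM in MC38 and 10.4 ± 1.67 CPM in LLC, although the sildenafil libraries in place of the controls gave a log2 fold change of 0.07 for it. Of 19 measured p53 target genes 4 were at least 2-fold higher and 6 lower in MC38, so the targets had no common direction. Ccng1 had 191 ± 2.33 CPM in MC38 and 34.6 ± 2.05 CPM in LLC, Btg2 had 3.87 ± 0.291 CPM in MC38 and 0.0222 ± 0.0384 CPM in LLC and Tnfrsf10b had 32.4 ± 1.22 CPM in MC38 and 12.2 ± 1.26 CPM in LLC. Bbc3, which encodes the death effector PUMA, had 5.29 ± 0.0531 CPM in MC38 and 13.6 ± 2.71 CPM in LLC, Trp53inp1 had 1.29 ± 0.043 CPM in MC38 and 4.68 ± 0.216 CPM in LLC and Gdf15 had 0 CPM in MC38 and 2.11 ± 0.0418 CPM in LLC. DNA mismatch repair genes differed mostly by under 2-fold. Of 10 measured, none was at least 2-fold higher and Mlh3 was lower, with 3.6, 4.28 and 3.88 CPM in the 3 MC38 libraries, against 34.9, 36.7 and 32.4 CPM in the 3 LLC libraries.

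Receptors and growth signalling genes leaned to MC38. Of 24 measured receptor tyrosine kinases 9 were at least 2-fold higher and 4 lower. Met, the receptor of hepatocyte growth factor, had 427, 408 and 428 CPM in the 3 MC38 libraries, against 44.6, 44.3 and 40.5 CPM in the 3 LLC libraries, a log2 fold change of 3.29 ± 0.0551. The ephrin receptors Epha2 and Ephb4 had 453 ± 11.5 CPM in MC38 and 65.4 ± 4.27 CPM in LLC for Epha2 and 156 ± 1.13 CPM in MC38 and 17 ± 1.31 CPM in LLC for Ephb4. Mertk had 16.8 ± 1.19 CPM in MC38 and 1.61 ± 0.101 CPM in LLC and Flt1 had 3.66 ± 0.161 CPM in MC38 and 0.125 ± 0.0573 CPM in LLC. Erbb3 had 10.9 ± 0.938 CPM in MC38 and 43.3 ± 1.21 CPM in LLC, and Ddr2, a collagen receptor, had 208 ± 11.6 CPM in MC38 and 445 ± 46.7 CPM in LLC. Met and Epha2 were thus high in MC38 and Erbb3 in LLC. Of the 22 ERK feedback and EGFR ligand genes 9 were at least 2-fold higher and 4 lower in MC38. Egr1 had 6.91 ± 0.425 CPM in MC38 and 0.0559 ± 0.0381 CPM in LLC, Spry1 had 62 ± 2.71 CPM in MC38 and 5.9 ± 0.706 CPM in LLC and Dusp5 had 28.2 ± 0.936 CPM in MC38 and 2.96 ± 0.405 CPM in LLC. Dusp4 had 32 ± 2.18 CPM in MC38 and 112 ± 1.87 CPM in LLC, Spred1 had 88.7 ± 1.33 CPM in MC38 and 241 ± 9.2 CPM in LLC, Spred2 had 19.3 ± 2.38 CPM in MC38 and 66.5 ± 22.1 CPM in LLC and Etv5 had 35.5 ± 1.34 CPM in MC38 and 71.6 ± 1.04 CPM in LLC. Feedback genes of the same pathway therefore stood on both sides.

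Genes of TGF-beta, activin and BMP signalling differed between the lines. Of 21 measured genes 10 were at least 2-fold higher and 4 lower in MC38. Tgfbr2, the type II receptor, had 600.2, 594 and 589.6 CPM in the 3 MC38 libraries, against 24.5, 25.3 and 22 CPM in the 3 LLC libraries, a log2 fold change of 4.64 ± 0.0634. Inhba, the activin A subunit, had 93.5, 95.8 and 95.5 CPM in the 3 MC38 libraries, against 0.0333, 0 and 0 CPM in the 3 LLC libraries, and its LLC count of 1 gave a ratio of 8471 (95% interval 1520.0 to 334639). Pmepa1, a feedback inhibitor, had 20.4, 20.5 and 20.4 CPM in the 3 MC38 libraries, against 0 CPM in all 3 LLC libraries, and Bmp4, a ligand, had 6.39, 6.63 and 4.97 CPM in the 3 MC38 libraries, against 0 CPM in all 3 LLC libraries. The receptor and these 3 genes were all higher in MC38. Id1 and Id2, targets of the BMP branch, were lower in MC38, Id1 with 0.0991 ± 0.000994 CPM in MC38 and 6.04 ± 0.782 CPM in LLC and Id2 with 0 CPM in all 3 MC38 libraries, against 5.15, 5.18 and 5.9 CPM in the 3 LLC libraries. Ltbp3, which stores latent TGF-beta in the matrix, had 48.4 ± 4.24 CPM in MC38 and 134 ± 29.5 CPM in LLC.

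WNT targets were split as well, with 4 of 9 measured genes at least 2-fold higher and 1 lower. Axin2, a feedback target of beta-catenin, had 5.06, 4.38 and 4.27 CPM in the 3 MC38 libraries, against 0.399, 0.29 and 0.412 CPM in the 3 LLC libraries, and Rnf43 had 6.36 ± 0.469 CPM in MC38 and 0.158 ± 0.0281 CPM in LLC. Tcf7 had 4.58 ± 0.534 CPM in MC38 and 0.858 ± 0.299 CPM in LLC and Cd44, the hyaluronan receptor, had 594 ± 31.2 CPM in MC38 and 132 ± 9.11 CPM in LLC. Of 19 measured genes of matrix proteases and their inhibitors and receptors 13 were at least 2-fold higher and 3 lower in MC38, with a median of 2.22. Plau, which encodes urokinase, had 180.2, 184 and 182 CPM in the 3 MC38 libraries, against 2.19, 2.39 and 2.25 CPM in the 3 LLC libraries, a log2 fold change of 6.32 ± 0.0596. Adam19 had 14.6 ± 0.738 CPM in MC38 and 0 CPM in LLC, Adamts5 had 12.4 ± 0.598 CPM in MC38 and 0.206 ± 0.148 CPM in LLC and Adam8 had 27.3 ± 0.592 CPM in MC38 and 1.65 ± 0.199 CPM in LLC. Hpse, the heparan sulfate-degrading heparanase, had 5.88 ± 0.158 CPM in MC38 and 42.2 ± 0.97 CPM in LLC and Mmp19 had 0.408 ± 0.128 CPM in MC38 and 6.44 ± 0.281 CPM in LLC. Of 14 measured integrins 6 were at least 2-fold higher and 4 lower. Itgb8 had 22.4 ± 1.43 CPM in MC38 and 0 CPM in LLC, Itgb3 had 10.7 ± 0.579 CPM in MC38 and 0.0347 ± 0.0363 CPM in LLC, Itga10 had 33.6 ± 1.87 CPM in MC38 and 1.16 ± 0.269 CPM in LLC and Itga3 had 658 ± 12.1 CPM in MC38 and 225 ± 9.29 CPM in LLC. Itgb7 had 93.8 ± 4.52 CPM in MC38 and 405 ± 2.83 CPM in LLC, Itga7 had 2.06 ± 0.0315 CPM in MC38 and 21.1 ± 0.195 CPM in LLC and Itga1 had 1.9 ± 0.0525 CPM in MC38 and 22.2 ± 1.67 CPM in LLC.

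Genes tied to the drug of the series differed at baseline. Pde5a, the phosphodiesterase that sildenafil inhibits, had 12.5, 13 and 13.1 CPM in the 3 MC38 libraries, against 4.09, 3.77 and 3.99 CPM in the 3 LLC libraries, a log2 fold change of 1.70 ± 0.0868 (adjusted p = 2.24e-08). Other phosphodiesterases were found on both sides. Pde3b had 61.8 ± 1.03 CPM in MC38 and 5.2 ± 0.587 CPM in LLC and Pde4d had 2.13 ± 0.279 CPM in MC38 and 0.152 ± 0.116 CPM in LLC. Pde2a, stimulated by cGMP, had 0.166, 0.0327 and 0.0994 CPM in the 3 MC38 libraries, against 34.1, 28.4 and 31.1 CPM in the 3 LLC libraries. Pde10a had 0 CPM in all 3 MC38 libraries, against 8.58, 9.92 and 8.53 CPM in the 3 LLC libraries, Pde1a had 0.011 ± 0.0191 CPM in MC38 and 3.66 ± 0.264 CPM in LLC and Pde1b had 0 CPM in MC38 and 2.29 ± 0.135 CPM in LLC. MC38 thus held more Pde5a and Pde3b, and Pde2a, Pde10a, Pde1a and Pde1b reached 1 CPM in LLC alone. Npr3, the clearance receptor of natriuretic peptides, had 27.1, 27.1 and 31 CPM in the 3 MC38 libraries, against 0 CPM in all 3 LLC libraries, and Npr2, a receptor that makes cGMP, had 14.6 ± 1.29 CPM in MC38 and 1.45 ± 0.279 CPM in LLC. The cGMP-dependent kinase Prkg2 had 43.3 ± 0.396 CPM in MC38 and 135 ± 4.01 CPM in LLC, and Prkg1 had no count in either line. In all, 7 of 20 measured phosphodiesterase and cGMP genes were at least 2-fold higher and 8 lower in MC38.

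Cholesterol genes had no common direction. The median over the 20 synthesis enzymes was 0.05, with 4 genes at least 2-fold higher and 1 lower in MC38, and with the sildenafil libraries in place of the controls it was 0.99. Msmo1, a sterol demethylase, had 142, 140.3 and 143 CPM in the 3 MC38 libraries, against 36.2, 35.7 and 36.7 CPM in the 3 LLC libraries. The other higher enzymes were Cyp51 with 164 ± 3.46 CPM in MC38 and 67 ± 4.01 CPM in LLC, Mvd with 25.7 ± 1.64 CPM in MC38 and 11.8 ± 0.567 CPM in LLC and Ebp with 31.8 ± 1.2 CPM in MC38 and 15.3 ± 1.49 CPM in LLC. Of 31 measured genes of sterol regulation, uptake, trafficking and efflux 6 were at least 2-fold higher and 3 lower in MC38, with a median of 0.02. Npc1, the lysosomal cholesterol exporter, had 57.7, 57.1 and 59.5 CPM in the 3 MC38 libraries, against 32.7, 31.4 and 29.8 CPM in the 3 LLC libraries, a log2 fold change of 0.89 ± 0.0525. Npc2, its lumenal partner, had 128, 125 and 125 CPM in the 3 MC38 libraries, against 113, 110.2 and 122 CPM in the 3 LLC libraries. The Npc2 log2 fold change of 0.13 ± 0.0492 (adjusted p = 0.0298) lost its call under 8 of the 19 alternatives. Srebf2, the sterol-sensing transcription factor, had 82, 86.6 and 89.5 CPM in the 3 MC38 libraries, against 143, 135 and 105 CPM in the 3 LLC libraries. LLC replicate 3 was the lowest LLC library for Srebf2, and between the sildenafil libraries the log2 fold change was 0.11 (adjusted p = 0.0525). Abca1, an exporter of cellular cholesterol, had 62.8, 60.8 and 70.3 CPM in the 3 MC38 libraries, against 5.35, 5.29 and 5.48 CPM in the 3 LLC libraries, and Soat1, which stores it as ester, had 101 ± 1.22 CPM in MC38 and 27.1 ± 1.66 CPM in LLC. Mylip, a ubiquitin ligase of sterol regulation, had 10.2, 8.72 and 9.34 CPM in the 3 MC38 libraries, against 0 CPM in all 3 LLC libraries. Mbtps2, a protease that releases SREBP proteins, had 20.4 ± 1.61 CPM in MC38 and 88.2 ± 12.6 CPM in LLC, and Gramd1c, a sterol carrier, had 2.62 ± 0.261 CPM in MC38 and 0.568 ± 0.151 CPM in LLC. The other lower members were low in both lines, Nr1h3, an oxysterol receptor, with 0.011 ± 0.0191 CPM in MC38 and 1.02 ± 0.0434 CPM in LLC and Npc1l1 with 0.0111 ± 0.0192 CPM in MC38 and 0.422 ± 0.101 CPM in LLC.

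Glycolysis and hypoxia genes were lower in MC38. Of 37 measured genes 3 were at least 2-fold higher and 18 lower, and the median of -0.83 ran from -1.07 to -0.34 over the alternatives. Their summed level was 13120 to 13600 CPM in MC38 and 23390 to 25860 CPM in LLC. Ldha, which makes lactate, had 862 ± 26.6 CPM in MC38 and 2106 ± 197 CPM in LLC. Pgk1 had 988 ± 14.4 CPM in MC38 and 2645 ± 253 CPM in LLC and Pdk1, which keeps pyruvate from the mitochondria, had 62.9 ± 1.75 CPM in MC38 and 299.9 ± 10.5 CPM in LLC. Adm, the hypoxia-induced peptide adrenomedullin, had 0.166, 0.261 and 0.0331 CPM in the 3 MC38 libraries, against 33.1, 41.9 and 48.8 CPM in the 3 LLC libraries. Bnip3, a mitophagy receptor, had 26.4, 31.2 and 29.3 CPM in the 3 MC38 libraries, against 171, 183 and 215 CPM in the 3 LLC libraries. Car12, a carbonic anhydrase, had 0 CPM in all 3 MC38 libraries, against 9.21, 8.94 and 8.21 CPM in the 3 LLC libraries. In each of these every MC38 library was below every LLC library. Pfkfb3 had 5.72 ± 0.831 CPM in MC38 and 34.1 ± 3.1 CPM in LLC and Pkm had 3521 ± 98 CPM in MC38 and 5737 ± 485 CPM in LLC. Epas1, which encodes HIF-2 alpha, went the other way, with 4.83, 5.09 and 6.43 CPM in the 3 MC38 libraries, against 0 CPM in all 3 LLC libraries, and Hif1a had 229.6 ± 3.36 CPM in MC38 and 243 ± 5.15 CPM in LLC, a log2 fold change of -0.08 ± 0.0419 that was not called (adjusted p = 0.102). P4ha2 had 37.6 ± 0.226 CPM in MC38 and 11.4 ± 0.754 CPM in LLC and Ankrd37 had 7.31 ± 0.524 CPM in MC38 and 3.63 ± 0.296 CPM in LLC. Antioxidant genes of the NRF2 pathway were 4 of 27 at least 2-fold higher and 8 lower in MC38. Hmox1, the heme oxygenase, had 58.8 ± 1.38 CPM in MC38 and 6.14 ± 0.249 CPM in LLC, and Nqo1 had 48 ± 3.24 CPM in MC38 and 19.9 ± 0.685 CPM in LLC. Slc7a11, the cystine importer, had 14.8 ± 0.596 CPM in MC38 and 87.8 ± 4.25 CPM in LLC. Aldh3a1 had 0 CPM in all 3 MC38 libraries, against 4.72, 5.4 and 5.48 CPM in the 3 LLC libraries, Cbr3 had 0.0109 ± 0.0189 CPM in MC38 and 14.3 ± 0.971 CPM in LLC and Mgst1 had 0.463 ± 0.0691 CPM in MC38 and 31.1 ± 2.4 CPM in LLC. Gsr had 238 ± 8.83 CPM in MC38 and 115 ± 0.654 CPM in LLC and Gstm5 had 17.1 ± 0.574 CPM in MC38 and 5.11 ± 0.479 CPM in LLC.

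Proliferation genes differed mostly by under 2-fold. Of 38 S-phase genes 4 were at least 2-fold higher and 2 lower, with a median of 0.03, and of 30 mitosis genes 1 was higher and 1 lower, with a median of -0.21, in each case under the background. Gins3 had 45.2 ± 0.476 CPM in MC38 and 8.31 ± 0.939 CPM in LLC and Gins2 had 53.9 ± 1.23 CPM in MC38 and 19.8 ± 1.6 CPM in LLC, both of the replicative helicase. Mcm5 had 439 ± 10.4 CPM in MC38 and 181 ± 8.97 CPM in LLC and Cdc6 had 117 ± 1.24 CPM in MC38 and 52.7 ± 2.61 CPM in LLC. Pola1, the DNA polymerase alpha catalytic subunit, had 102 ± 2.92 CPM in MC38 and 234 ± 8.6 CPM in LLC, and E2f1 had 22.7 ± 0.457 CPM in MC38 and 48.8 ± 1.16 CPM in LLC. The mitotic kinase Ttk had 55.8 ± 1.42 CPM in MC38 and 23.9 ± 0.317 CPM in LLC, and Cenpf, a kinetochore protein, had 176 ± 11.3 CPM in MC38 and 389.7 ± 32.1 CPM in LLC.

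A block of neighbouring genes on distal chromosome 7 was all but without counts in LLC. Between Cd81 and Phlda2 (143052739 to 143503150 in mm10, 450.4 kb) 6 genes were measured, with 31025 counts in the MC38 controls and 1 count in the LLC controls. Cd81, Tssc4, Kcnq1ot1, Cdkn1c, Slc22a18 and Phlda2 had MC38 means of 233, 48.8, 34.5, 1.06, 3.33 and 21.2 CPM. Before Cd81, the low noncoding genes Igf2os and R74862 were also without a count in LLC, with MC38 means of 1.36 and 0.638 CPM, so the start given is that of the first well-expressed gene. The nearest well-expressed genes on both sides were measured in both lines. Mrpl23, before it, had 38.8, 39.6 and 38.8 CPM in the 3 MC38 libraries, against 36.8, 36 and 38.1 CPM in the 3 LLC libraries. Nap1l4, after it, had 165, 154 and 152 CPM in the 3 MC38 libraries, against 97.3, 100.2 and 107 CPM in the 3 LLC libraries. The block includes imprinted genes, which are read from 1 parental copy, such as the growth inhibitor Cdkn1c and the antisense RNA Kcnq1ot1. Of 10 measured imprinted genes 6 were at least 2-fold higher in MC38, 4 of them in this block, and 2 lower. Impact had 180.4 ± 4.28 CPM in MC38 and 41 ± 1.32 CPM in LLC. Airn, antisense to Igf2r, had 0.2, 0.131 and 0.232 CPM in the 3 MC38 libraries, against 6.35, 8.69 and 6.72 CPM in the 3 LLC libraries and Peg13 had 0.133 ± 0.0996 CPM in MC38 and 4.5 ± 0.62 CPM in LLC. Antisense genes such as Airn and Kcnq1ot1 are uncertain, since the strand setting of the counting is not given in the sources used here.

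Among germline genes Rhox5, an X-linked homeobox gene of the reproductive tract that many tumour lines express, had 1.33, 1.67 and 1.76 CPM in the 3 MC38 libraries, against 479.7, 472 and 571 CPM in the 3 LLC libraries, and was 319-fold lower in MC38. Dnmt3l, a cofactor of DNA methylation in germ cells, had 0.077 ± 0.038 CPM in MC38 and 3.05 ± 0.527 CPM in LLC. Of 27 germline genes 23 stayed under 1 CPM in all 6 libraries and 5 were measured, of which 1 was at least 2-fold higher and 3 lower in MC38. The higher one, Xlr3a, had 0.77 ± 0.208 CPM in MC38 and 0.378 ± 0.198 CPM in LLC, and without LLC replicate 3 no germline gene was at least 2-fold higher. Its relative Xlr3b, the third lower gene, had 0.0222 ± 0.0385 CPM in MC38 and 1.47 ± 0.122 CPM in LLC, and reads of these related genes may be divided between them. Xist, the RNA that silences an X chromosome in female cells, was at most 0.290 CPM in any library, and the Y-linked genes Ddx3y, Eif2s3y, Kdm5d and Uty had no count in either line. Elsewhere on the annotated Y chromosome 1 protein-coding gene was measured, and it was called higher in MC38 with a log2 fold change of 4.53. Jpx, an activator of Xist, had 0.769 ± 0.263 CPM in MC38 and 3.07 ± 0.253 CPM in LLC.

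Chromosome 8 stood apart in the direction of its genes. Its 664 measured protein-coding genes had a median log2 fold change of 1.01, 77.7% of them were called higher in MC38 and 98 called lower, where the median over all 12158 protein-coding genes was 0.05 and 44.0% were called higher. The shift was seen along the chromosome, with medians of 0.95, 1.11, 0.44, 1.13 and 1.13 in 5 successive groups of genes. Chromosome 11 had a median of 0.53 over 1014 genes and chromosome 14 of 0.43 over 414 genes. The other autosomes and the X chromosome lay between -0.24 on chromosome 17 and 0.14 on chromosome 12. Over the 19 alternatives the chromosome 8 median ran from 0.93 to 1.03, that of chromosome 11 from 0.45 to 0.55 and that of chromosome 14 from 0.35 to 0.46. Chromosome copy number was not measured.

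**Figure D5:**
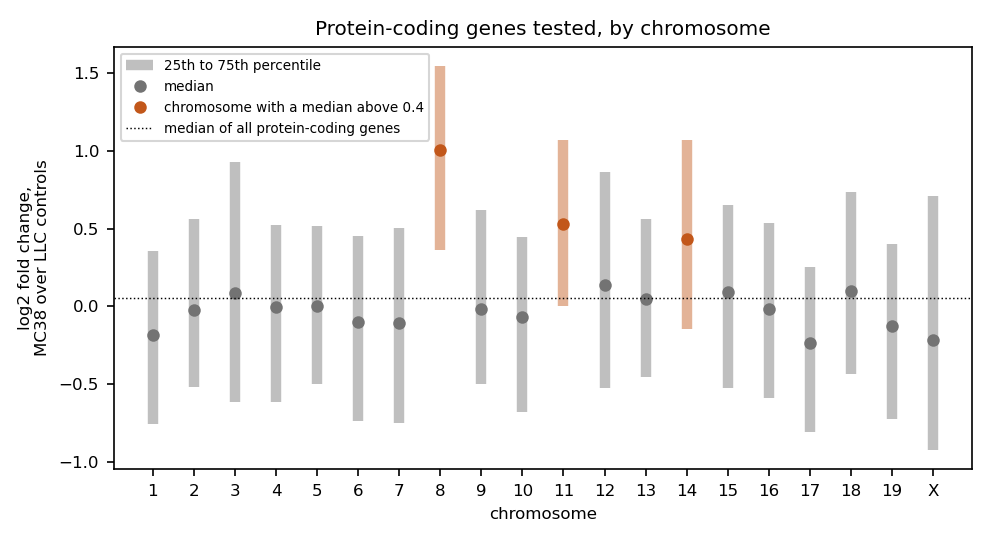
Median (dot) and 25th to 75th percentile (bar) of the log2 fold change, MC38 over LLC, of the measured protein-coding genes of each chromosome. Chromosomes 8, 11 and 14 have medians of 1.01, 0.53 and 0.43, above the dotted median of 0.05 over all protein-coding genes.

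Nuclear and noncoding RNA took large shares of the counts in both lines, and what part the making of the libraries had in this was not tested. Neat1, the scaffold RNA of paraspeckles, had 9.69, 9.57 and 12.3 CPM in the 3 MC38 libraries, against 1472, 1551 and 1239 CPM in the 3 LLC libraries, 135-fold lower in MC38, and Malat1 had 2075 ± 37.6 CPM in MC38 and 5312 ± 166 CPM in LLC. Gm26917 had 9139, 10713 and 14421 CPM in the 3 MC38 libraries, against 28948, 20557 and 9532 CPM in the 3 LLC libraries, and its difference was not called (adjusted p = 0.178) but was called without LLC replicate 3 (-1.11, adjusted p = 0.0378). The signal recognition particle RNAs Rn7s1 and Rn7s2 had 9560.3 ± 294 CPM in MC38 and 5931 ± 727 CPM in LLC for Rn7s1 and 47972 ± 7513 CPM in MC38 and 28503 ± 6972 CPM in LLC for Rn7s2, and Rn7sk had 21853 ± 1340.0 CPM in MC38 and 20659 ± 4792 CPM in LLC. Reads of Rn7s1 and Rn7s2 may be divided between these near-identical copies. Rny1, a small cytoplasmic RNA, had 2.44 ± 0.946 CPM in MC38 and 7.47 ± 1.63 CPM in LLC. Lars2 had 11.9 ± 9.88 CPM in MC38 and 67.2 ± 7.67 CPM in LLC, and lost its call without MC38 replicate 3 (adjusted p = 0.0529) or LLC replicate 2 (adjusted p = 0.0514), and between the sildenafil libraries (adjusted p = 0.543). Of the 15 mitochondrially encoded transcripts none was at least 2-fold higher and mt-Co1 was lower in MC38, with 3187 ± 41.1 CPM in MC38 and 7284 ± 622 CPM in LLC, and without LLC replicate 3 there were 6 lower. Among the genes with the largest shares of counts, the actins Actb and Actg1 were higher in MC38, with 5857 ± 138 CPM in MC38 and 3229 ± 239 CPM in LLC for Actb and 4612 ± 56.5 CPM in MC38 and 904 ± 21 CPM in LLC for Actg1. S100a6 had 4975 ± 106 CPM in MC38 and 1164 ± 241 CPM in LLC and Hspa8 had 4850.1 ± 54 CPM in MC38 and 3383 ± 239.7 CPM in LLC. Ahnak had 3362 ± 477 CPM in MC38 and 7486 ± 504 CPM in LLC and Ftl1, a ferritin chain, had 2595 ± 68.6 CPM in MC38 and 4797 ± 379 CPM in LLC. The translation factor Eef1a1 had 11888 ± 258 CPM in MC38 and 10450.0 ± 641 CPM in LLC, a log2 fold change of 0.19 ± 0.0733 that lost its call under 9 of the 19 alternatives.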

How the data were processed

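RNA sequencing libraries of untreated MC38 (3) and LLC (3) cells were compared, out of 18 libraries of the series. Per the labels' protocols, RNA was lysed and column purified, and stranded poly(A) libraries were sequenced as paired reads. Histone cluster genes took 0.785% to 1.21% of counts in the MC38 and LLC controls and protein-coding genes 87.6% to 89.5%. In the 4T1 controls these shares were 0.00412% to 0.00447% and 97.1% to 97.2%, and Gm26917 took 0.0157% to 0.0163%. Whether the poly(A) label describes the MC38 and LLC libraries was not tested. The deposited values are expected counts per gene that the authors estimated with RSEM 1.3.1, and the submitters' processing notes also name STAR 2.7.0f, cutadapt 1.18, bcl2fastq 2.17 and the mm10 build. Strand handling and annotation version were not given in the sources used here, and all 55450 identifiers matched GENCODE M21, which gave positions. Reads that fit several near-identical genes are split by estimation, so Rhox2, H2, Oas, Ifit3 and Rn7s copies are uncertain.

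Expected counts were rounded to whole numbers. Genes passing the default expression filter were tested with edgeR 4.0.16 (TMM factors, the robust quasi-likelihood test with 4 residual degrees of freedom, Benjamini-Hochberg adjustment over all tested genes) in R 4.3.3, and a second rule also required a 2-fold change. The script was tested on simulated data, where it missed some of the changed genes and its share of wrong calls was above the nominal rate. Depth was 26348654 to 31777699 counts per library, and floors and intervals cover counting error only. limma 3.58.1 and DESeq2 1.42.0 were alternatives, beside other scalings, filters, sample sets and leaving out each library. Genes named were the 10 highest and 10 lowest fold changes among protein-coding genes with 10 CPM and no overlap, up to 4 per list and direction with 2 CPM, a fixed set, and the 10 most abundant per line. Other genes named were chosen after their values were seen. Members and lists were chosen with earlier results of these data known, and lists were not tested as sets. Some list members are not reported here.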

Additional observations from a re-analysis of the deposited data

How the results depend on the processing

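A test against a change of 2-fold itself left 2194 genes higher and 2038 lower in MC38, and requiring 5 CPM in 3 libraries left 1604 higher and 1340 lower among genes called at least 2-fold, where fewer genes were tested. Leaving out each library in turn gave 5586 to 6027 genes called higher, 5405 to 5947 called lower, 2684 to 2755 at least 2-fold higher and 2556 to 2775 at least 2-fold lower. It left 20 to 20 list medians and 9 to 12 chromosome medians above 0. DESeq2 called 5565 higher and 5525 lower. Library totals alone called 5254 higher and 6182 lower and moved the median of all genes to -0.11. Among 211 named genes, 3940 of 3967 comparisons with an alternative kept direction and call. Most of these genes were named for a large called change in the main fit, so this share does not describe genes in general. With sildenafil libraries in place of controls, Cdkn1a turned to 0.068 (adjusted p = 0.582 by edgeR) and Srebf2 to 0.11 (adjusted p = 0.0525), and the cause was not tested. The lists with a median that changed sign under at least 1 alternative were intestinal, endothelial, HOX, p53 target, immune ligand, phosphodiesterase, cholesterol synthesis, sterol regulation and S-phase genes.

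The correlations of same-numbered deviations were -0.12, -0.19 and -0.40, and those of differently numbered ones ran from -0.20 to 0.33. With 3 libraries per line and LLC replicate 3 apart, these values cannot show whether libraries of the lines shared a batch. The main fit used no pairing. A replicate block gave 5438 genes called higher and 5306 lower. A count of 0 at this depth allows up to 0.033 CPM in MC38 and 0.0336 CPM in LLC.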

Other observations

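Some genes without counts in 1 line were neighbours or members of a family, chosen here after their values were seen. Runs of at least 3 neighbouring protein-coding genes, measured in 1 line and with at most 3 counts in the other, numbered 6 for genes missing in MC38 and 16 for genes missing in LLC. In MC38 a run on chromosome 6 (91013068 to 91272540 in mm10) held Nup210, Hdac11, a histone deacetylase, and Fbln2, a matrix fibulin. The Ugt1a genes, which conjugate glucuronic acid to bilirubin and drugs, were at 0 in MC38, while Ugt1a7c averaged 20.2 CPM and Ugt1a6a 17.1 CPM in LLC, though their reads may be shared among exons common to the family. Of 6 measured Rhox genes 5 were lower in MC38, and Rhox10 was the exception with 11.2 ± 0.381 CPM in MC38 and 0 CPM in LLC.

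In LLC a run on chromosome 19 (24999534 to 26778322) held Dock8, Kank1, Dmrt2 and Smarca2, an ATPase of chromatin remodelling complexes. The X-linked genes Armcx3 and Armcx2 averaged 37.2 and 4.79 CPM in MC38 and 0 CPM in LLC, while their relative Armcx1 had 10.6 ± 0.402 CPM in MC38 and 10.5 ± 1.51 CPM in LLC. T-box factors, which pattern embryonic organs, were divided. Tbx18 had 33.1 ± 1.39 CPM in MC38 and 0 CPM in LLC, Tbx4, a gene of limb and lung mesenchyme, had 0 CPM in MC38 and 29.8 ± 1.04 CPM in LLC, and Tbx15 had 75.6 ± 1.5 CPM in MC38 and 58.7 ± 1.67 CPM in LLC. Of the 164 genes at 0 in LLC 82 reached 5 CPM in 4T1, and of the 101 genes at 0 in MC38 29 did. The 4T1 controls held 41621067 to 53785071 counts, 97.1% to 97.2% of them in protein-coding genes. In the MC38 and LLC controls that share was 87.6% to 89.5%, so 5 CPM is not strictly alike across the lines.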
